A study of Mus musculus with 4 samples.

Results

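Dense-core vesicles carry peptides, growth factors and their processing enzymes out of neurons and endocrine cells. Granin proteins fill the vesicle lumen and help to form it, prohormone convertases and carboxypeptidase E cut peptide precursors inside it, and priming factors and calcium sensors bring about its release. In the habenula, peptides such as the tachykinins are made by neurons that release them beside acetylcholine or glutamate. A set of 10 genes of this pathway was described here, out of 53465 gene identifiers measured. The set held 4 granins (Chga, Chgb, Scg2 and Scg3), 3 peptide-processing enzymes (Pcsk1, Pcsk2 and Cpe) and 3 release factors (Cadps, Cadps2 and Syt9). The genes were picked by symbol, with the difference between isolated and group-housed mice already known. Their fold changes are therefore a description, and nothing is read from how the fit over all genes called them.

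RNA was sequenced from lateral habenula tissue of C57BL/6 mice, a small nucleus of the epithalamus through which the forebrain reaches the monoamine neurons of the midbrain. There were 2 libraries from socially isolated mice and 2 from group-housed mice. The labels name no transgene, drug or other agent and give neither the age of the animals nor the length of isolation, and they do not say whether a library came from 1 animal or from a pool. The libraries held 20897605 to 26428152 read counts each. Of 9 markers of the lateral habenula all were detected in every library, among them Gpr151 at 425 and 426 CPM in the isolated and 396 and 352 CPM in the group-housed libraries (replicates 1 and 2), where CPM is the count scaled to a common library total. Markers of neighbouring tissue were also present, and their summed levels differed between libraries. In these bulk samples, fewer cells of a type and less RNA per cell cannot be told apart.

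All 10 genes had enough reads to be tested, with 2162 to 53561 counts per gene and library. The promoters of several granin and convertase genes carry a cAMP response element, the palindrome TGACGTCA bound by CREB, a factor activated by calcium and cAMP signalling. RefSeq promoter windows of GRCm38.p6, from 250 bases before to 50 bases after the annotated start, were matched for 9 of the 10 genes, all but Cpe. The full element stood in 3 of these 9 windows (Chgb, Scg2 and Pcsk1) and in 1.79% of all 32851 windows. Its core TGACG, which the full element contains, stood on either strand in 6 of the 9 (also Chga, Scg3 and Pcsk2) and in 20.8% of all windows. The stretches of 30 bases around the site nearest to the window's upstream end show the flanks that differ between these genes. They read 5′ to 3′ on the gene's strand, with the full element, or the core where there is no full element, in capitals.
Chgb: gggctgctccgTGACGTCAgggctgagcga
Scg2: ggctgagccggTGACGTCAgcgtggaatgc
Pcsk1: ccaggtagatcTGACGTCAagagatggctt
Chga: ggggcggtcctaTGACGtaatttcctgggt
Scg3: gcgctgggtcgcTGACGccatcctcacgcc
Pcsk2: ctggcgggcgcgCGTCAcccgggctggcgc

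These stretches lie at chr2:132781559-132781588 (plus strand, Chgb), chr1:79440076-79440105 (minus, Scg2), chr13:75089768-75089797 (plus, Pcsk1), chr12:102554885-102554914 (plus, Chga), chr9:75684069-75684098 (minus, Scg3) and chr2:143546087-143546116 (plus, Pcsk2). The full element began 72 bases before the RefSeq start in Chgb, 68 in Scg2 and 78 in Pcsk1. For Chgb and Scg2 GENCODE M21 places the gene's start farther upstream, so that there the whole stretch lies inside the annotated gene. The capitals of Pcsk2 are the core on the opposite strand.

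The windows of the 3 release factors held neither form. Those of Cadps2 and Syt9 are shown because these genes had the largest fold changes of the set. The 100 bases before both the RefSeq and the GENCODE start are given, with each GC box in them (GGGCGG on either strand, bound by Sp-family factors) in capitals.
Cadps2: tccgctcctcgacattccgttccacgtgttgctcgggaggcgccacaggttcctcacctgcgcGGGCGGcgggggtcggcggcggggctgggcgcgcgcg
Syt9: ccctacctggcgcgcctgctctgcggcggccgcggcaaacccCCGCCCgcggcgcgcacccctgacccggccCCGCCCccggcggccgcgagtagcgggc

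The Cadps2 stretch is chr6:23839422-23839521 on the minus strand, with 1 GC box in these bases. The Syt9 stretch is chr7:107370628-107370727 on the plus strand, with 2 GC boxes in these bases. A GC box stood in the windows of 6 of the 9 genes and in 35.7% of all windows. A TATA box (TATAAA, either strand) stood in 1 of the 9, that of Chga, and in 13.6% of all, and an E-box (CACGTG) in 1, that of Cadps2, and in 7.15%. The TATAAA of Chga lay at bases 6 to 11 after the RefSeq start. GENCODE M21 places the start of Chga farther downstream, at chr12:102554969, so the match lies before that start. A match is a run of letters in this window, and binding was not measured.

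Levels were compared between genes per kb of the union of their exons. Cpe, which trims basic residues from cut peptides, had by far the highest level of the 10, at 759 and 775 CPM per kb in the isolated and 879 and 777 in the group-housed libraries. It lay above 99.8% of all tested genes on this scale. Scg2, the precursor of secretoneurin, came next at 160 ± 7.09 CPM per kb (SD over all n = 4 libraries), followed by Scg3 at 94.7 ± 1.74 and Chgb at 94.1 ± 5.83. Syt9 averaged 79.5 ± 14.8 and Chga 72.3 ± 5.05 CPM per kb. The convertase Pcsk2 stood at 50.7 ± 1.83 CPM per kb, Pcsk1 at 20.6 ± 1.47, Cadps2 at 17.0 ± 3.14 and Cadps at 15.4 ± 1.29. Over the libraries, Scg3 and Chgb overlapped, and so did Chgb and Syt9, Syt9 and Chga, Pcsk1 and Cadps2, and Cadps2 and Cadps. The ranges of the other neighbours in this order did not overlap. Pcsk1 was above Cadps2 within each of the 4 libraries, although their ranges over the libraries overlapped. The largest spreads, 18.6% of the mean for Syt9 and 18.4% for Cadps2, belong to the genes whose groups lay farthest apart. Per kb of the longest annotated transcript, Cpe, Scg2 and Scg3 kept the top places, Chga stood above Chgb in all 4 libraries, and Pcsk1 took the last place below Cadps. The highest mean was 51.9 times the lowest on the exon union and 43.0 times on the longest transcript.

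**Figure D1:**
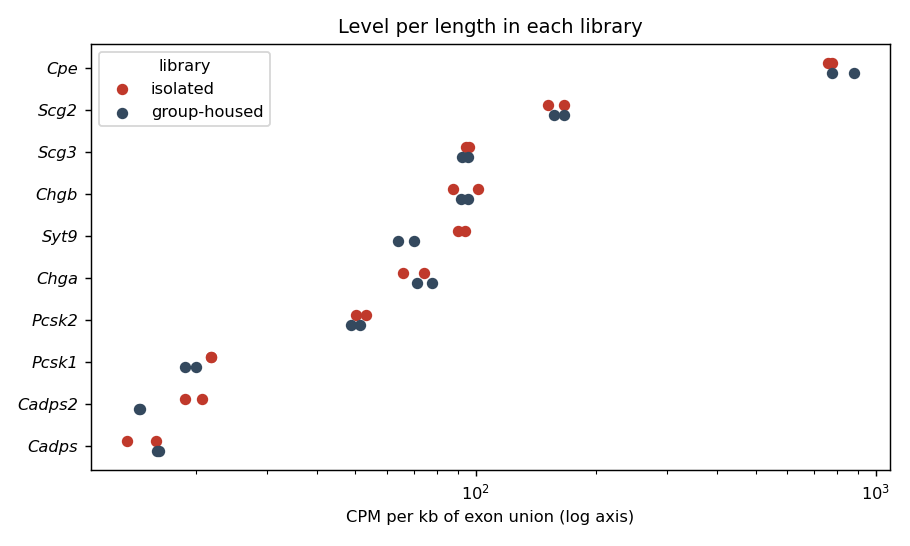
Level of each of the 10 genes in CPM per kb of exon union (log axis), 1 point per library, with isolated libraries drawn above group-housed ones in each row. Cpe stands apart at 759 to 879, and in Syt9 and Cadps2 the isolated points lie to the right of the group-housed points.

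The granins showed no separation of the groups. Chga, the chromogranin A gene, measured 204 and 181 CPM in isolated libraries (replicates 1 and 2), against 214 and 196 CPM in group-housed libraries. Chgb, the chromogranin B gene, measured 278 and 241 CPM in isolated and 262 and 251 CPM in group-housed libraries. For both genes isolated replicate 2 was the lowest library. Scg2 measured 418 and 381 CPM in isolated libraries, against 416 and 395 CPM in group-housed libraries, and isolated replicate 2 was again the lowest. Scg3, which encodes a granin that binds chromogranin A at vesicle membranes, measured 263 and 258 CPM in isolated and 262 and 253 CPM in group-housed libraries. The log2 fold changes, isolated over group-housed, were -0.09 (SE 0.08) for Chga, 0.02 (SE 0.08) for Chgb, -0.02 (SE 0.08) for Scg2 and 0.02 (SE 0.06) for Scg3. In all 4 granins the values of the 2 groups overlapped. Within the isolated group the replicates of a granin differed by up to 0.21 on the log2 scale, and within the group-housed group by up to 0.13.

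Of the processing enzymes, Pcsk1 was slightly higher in both isolated libraries. This proprotein convertase makes early cuts at basic residues in the maturing vesicle, and it measured 121.9 and 122.1 CPM in isolated libraries, against 105 and 112 CPM in group-housed libraries. Its log2 fold change was 0.17 (SE 0.06), a fold of 1.12. Pcsk2, the convertase that completes many of these cuts, measured 419 and 396 CPM in isolated and 385 and 405 CPM in group-housed libraries, with overlapping groups and a log2 fold change of 0.04 (SE 0.07). Exons of Pcsk2 overlap 359 bp of the antisense genes Pcsk2os1 and Pcsk2os2, and no source used here gives the strand setting of the counting, so its counts may hold reads of these. Cpe measured 1981 and 2021 CPM in isolated libraries, against 2294 and 2027 CPM in group-housed libraries. Its log2 fold change was -0.11 (SE 0.10), and group-housed replicate 1 alone stood apart, the other 3 libraries lying within 1981 to 2027 CPM. The ratio of Pcsk1 to Pcsk2, taken per kb within a library and thus free of library scaling, was 0.410 and 0.436 in isolated and 0.386 and 0.389 in group-housed libraries. On the longest transcripts it was 0.272 and 0.289 in isolated and 0.256 and 0.259 in group-housed libraries. On the exon union it was higher in both isolated libraries, with a gap between the isolated replicates no narrower than the distance to the group-housed ones.

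The release factors held the largest differences of the set. Syt9 encodes a synaptotagmin, a calcium sensor found on synaptic and dense-core vesicles, and it measured 359 and 374 CPM in isolated libraries, against 279 and 255 CPM in group-housed libraries. The means were 366 ± 10.5 CPM and 267 ± 17.0 CPM (SD, n = 2 each), a log2 fold change of 0.46 (SE 0.07) and a fold of 1.37. The groups did not overlap, and the lower isolated library exceeded the higher group-housed one by more than the replicates of either group differed. Cadps2 encodes a priming factor of the CAPS family, which prepares dense-core vesicles for calcium-triggered fusion. It measured 179 and 197 CPM in isolated libraries, against 137 and 138 CPM in group-housed libraries. The means were 188 ± 12.5 CPM and 138 ± 0.498 CPM (SD, n = 2 each), a log2 fold change of 0.45 (SE 0.07) and a fold of 1.37. Here too the groups did not overlap, and the isolated replicates were farther apart than the group-housed ones.

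Cadps, the paralog of Cadps2 that serves the same priming step, did not share this difference. It measured 239 and 202 CPM in isolated libraries, against 240 and 243 CPM in group-housed libraries, a log2 fold change of -0.13 (SE 0.08). Isolated replicate 1 lay just under the group-housed libraries, and isolated replicate 2 lay well below all others. Per kb within a library, the ratio of Cadps2 to Cadps was 1.18 and 1.53 in isolated libraries, against 0.900 and 0.894 in group-housed libraries. Per length, Cadps2 was thus the more abundant of these paralogs in both isolated libraries and the less abundant in both group-housed libraries. On the longest transcripts the order was the same (1.19 and 1.54 in isolated, against 0.904 and 0.898 in group-housed libraries). This order depends on the length divisor, since in CPM Cadps was above Cadps2 in every library. Which annotated transcripts of these genes were present was not tested. The ratio of Syt9 to Syt1, the main calcium sensor of fast synaptic release, was 0.818 and 0.962 in isolated libraries, against 0.630 and 0.609 in group-housed libraries. On the longest transcripts it was 0.493 and 0.580 in isolated libraries, against 0.379 and 0.367 in group-housed libraries, the same order at lower values.

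**Figure D2:**
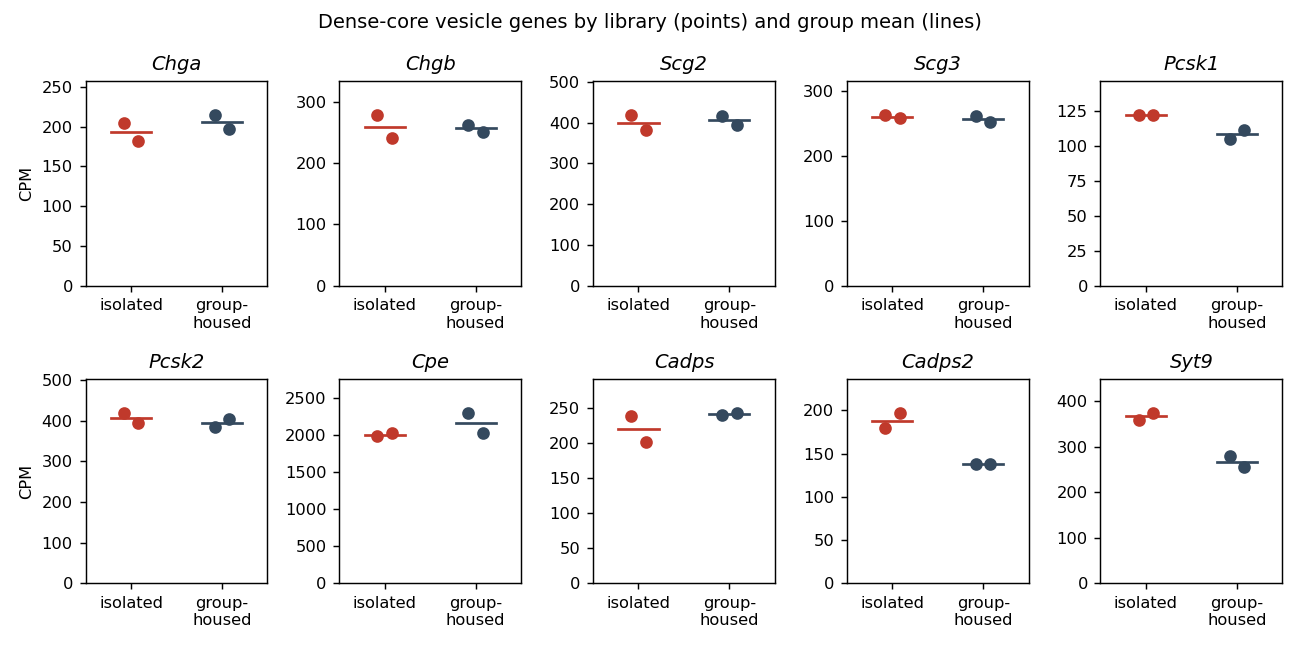
CPM of the 10 genes in the 2 isolated and 2 group-housed libraries (points) with group means (lines), each panel on its own linear axis from 0. The groups are far apart in Cadps2 and Syt9, and overlap in the 4 granins and Pcsk2. They are close but not overlapping in Pcsk1 and, with this library scaling, in Cpe and Cadps.

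Over the 10 genes, the isolated libraries were both higher than the group-housed ones for 3 (Pcsk1, Cadps2 and Syt9), beside 17.4% of all 17528 tested genes. They were both lower for 2 (Cpe and Cadps), beside 16.3% of all tested genes. For Cpe and Cadps the nearest libraries of the groups were close, at 2021 against 2027 CPM and 239 against 240 CPM (isolated against group-housed). Whether the groups of these genes overlap therefore depends on the library scaling. The median log2 fold change of the 10 was 0.02, with a range of -0.13 to 0.46, beside a median of 0.0033 over all tested genes. Without Cadps2 and Syt9 the median of the other 8 was -0.0033, with a highest value of 0.17. Fold changes above that of Syt9 were found for 720 tested genes (4.11%) and above that of Cadps2 for 746 (4.26%). In edgeR's quasi-likelihood test, 0 of the 10 genes passed an adjusted p of 0.05, a threshold that 0.0114% of all tested genes passed, and 3 had an unadjusted p below 0.05, beside 5.09% of all. Limma-voom also called 0 (0.0114% of all genes). Cadps2 and Syt9 were called higher by DESeq2 (0.297% of all genes), by edgeR's exact test (0.468%) and by the quasi-likelihood test with no filter on low counts (0.0513%). Nothing is read from these counts, since the genes were picked with this contrast known.

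**Figure D3:**
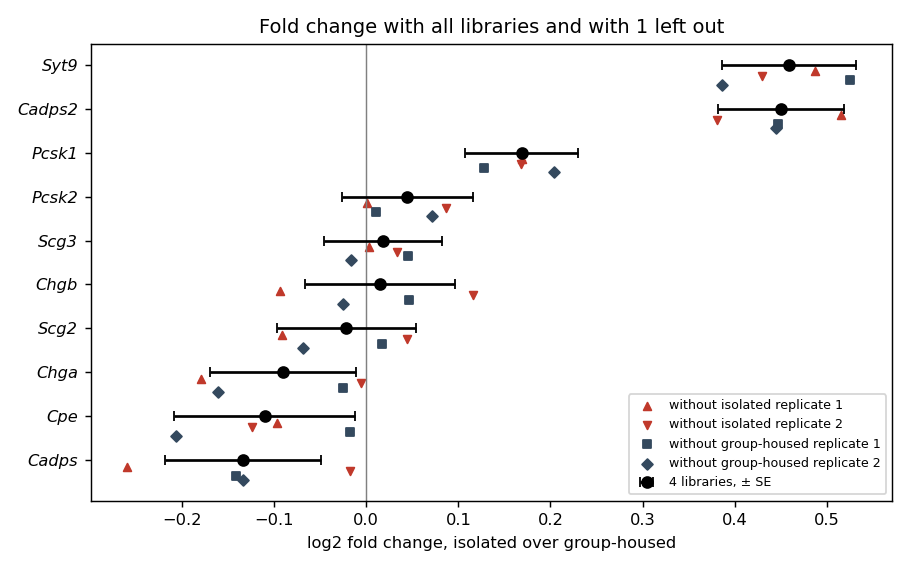
Log2 fold change, isolated over group-housed, with all 4 libraries (black points, bars ± SE) and with each library left out in turn (coloured symbols). Syt9 and Cadps2 stay between 0.38 and 0.53 in every omission, Chga stays below 0, and Chgb, Scg2 and Scg3 lie on both sides of it.

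Both stayed higher in the isolated libraries whichever library was left out. The log2 fold change of Syt9 was 0.49 without isolated replicate 1, 0.43 without isolated replicate 2, 0.53 when group-housed replicate 1 was left out and 0.39 when group-housed replicate 2 was. That of Cadps2 was 0.52, 0.38, 0.45 and 0.44 in the same order. The quasi-likelihood test called both without isolated replicate 1, where 1.22% of all genes were called, and neither in the other 3 omissions. For Cadps the omission of isolated replicate 1 gave -0.26 and that of isolated replicate 2 gave -0.02, so that its difference lay mostly in isolated replicate 2. That of Cpe was -0.02 when group-housed replicate 1 was omitted and -0.21 when group-housed replicate 2 was.

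Markers of neighbouring tissue and of glia also differed between the groups. The counts below stand beside 17.4% of all tested genes higher and 16.3% lower in both isolated libraries. Of 9 markers of the medial habenula, 7 were higher in both isolated libraries and 1 lower in both. Their summed level was 1458 and 1438 CPM in isolated libraries, against 1143 and 1045 CPM in group-housed libraries, and none was at 0 in any library. The 2 genes called over all genes, Chrnb3 (log2 fold change 0.85, edgeR adjusted p = 0.0227) and Slc5a7 (0.65, edgeR adjusted p = 0.0227), are both on that list. As the list was chosen with earlier results of these data known, nothing is read from their place on it. Of 12 thalamus markers 10 were lower in both isolated libraries, with sums of 1073 and 903 CPM in isolated and 1179 and 1314 CPM in group-housed libraries, and none was at 0. Ependymal markers summed to 92.7 and 184 CPM in isolated libraries, against at most 89.2 CPM in group-housed libraries, with 8 of 10 higher in both isolated libraries and none at 0. Neuron markers summed to 6206 and 5716 CPM in isolated and 6343 and 5997 CPM in group-housed libraries, with 1 of 13 higher and 2 lower in both isolated libraries. The 9 lateral habenula markers summed to 2073 and 1836 CPM in isolated and 2005 and 1899 CPM in group-housed libraries, with 3 higher and 1 lower in both isolated libraries. Their log2 fold changes were above 0 for 4 and below 0 for 5, with a median of -0.09. Of the glial lists, 9 of 12 oligodendrocyte, 7 of 10 microglia and 6 of 10 astrocyte markers were lower in both isolated libraries, and 0 of each list were higher in both. Their sums were 11038 and 13008 CPM in isolated and 14561 and 13554 CPM in group-housed libraries for oligodendrocytes, 373 and 367 CPM in isolated and 428 and 388 CPM in group-housed libraries for microglia, and 4546 and 4551 CPM in isolated and 5077 and 4707 CPM in group-housed libraries for astrocytes. The part of these marker differences in the values of Cadps2 and Syt9 was not tested.

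Other genes of the pathway were taken from 6 lists of 108 genes in all, of which 97 could be tested. None of the 97 passed in edgeR's quasi-likelihood test or in limma-voom, and 8 had an unadjusted p below 0.05, beside 5.09% of all tested genes. DESeq2 called 1 of them, Tac2, and edgeR's exact test called Tac2 and Stxbp5l, all as higher. The isolated libraries were both higher than the group-housed ones for 17 of the 97 and both lower for 18, beside 17.4% and 16.3% of all tested genes. The median log2 fold change of the 97 was -0.03.

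Among 21 further release factors, 8 had a log2 fold change above 0 and 13 below (median -0.02), and the groups did not overlap for 6 above and 5 below, beside the same 17.4% and 16.3%. Stxbp5l encodes a tomosyn, which binds SNARE proteins and restrains vesicle priming. It measured 72.0 and 72.4 CPM in isolated libraries, against 56.7 and 54.2 CPM in group-housed libraries (log2 fold change 0.38, SE 0.06, edgeR adjusted p = 0.193). Rph3a, the gene of the Rab3 effector rabphilin, measured 267 and 237 CPM in isolated and 320 and 292 CPM in group-housed libraries (-0.28, SE 0.08, edgeR adjusted p = 0.758). Sytl4, which encodes the granule-docking protein granuphilin, was scarce at 1.22 and 0.906 CPM in isolated and 1.56 and 1.75 CPM in group-housed libraries (-0.64, SE 0.29, edgeR adjusted p = 0.979). These were the 3 with the largest fold changes among the 11 whose groups did not overlap.

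Of 5 further granins and cargo helpers, 2 had a log2 fold change above 0 and 3 below (median -0.02). Nucb2, the precursor gene of nesfatin, measured 18.7 and 16.7 CPM in isolated and 14.7 and 16.2 CPM in group-housed libraries (0.19, edgeR adjusted p = 0.979). Scg5, whose product is the chaperone of the Pcsk2 convertase, measured 186 and 179 CPM in isolated and 188 and 189 CPM in group-housed libraries (-0.04, edgeR adjusted p = 0.9998). Vgf, an activity-regulated granin named after its values were seen, measured 123 and 73.8 CPM in isolated and 102 and 92.8 CPM in group-housed libraries. The isolated replicates of Vgf lay on opposite sides of the group-housed ones.

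Of 10 further processing enzymes tested, 4 had a log2 fold change above 0 and 6 below (median -0.03). Pam, which amidates peptide ends, measured 401 and 399 CPM in isolated and 374 and 364 CPM in group-housed libraries (0.12, edgeR adjusted p = 0.979). The convertase gene Pcsk5 measured 10.8 and 9.58 CPM in isolated and 12.2 and 13.0 CPM in group-housed libraries (-0.30, edgeR adjusted p = 0.933). Of 17 genes of vesicle assembly and membrane, 9 lay above 0 and 8 below, with a narrow range of -0.11 to 0.11 and a median of 0.01. Pick1 and Ica1l, whose products bind curved membranes during vesicle budding, gave 0.11 and 0.09, and Vps52, of a tethering complex at the Golgi, gave -0.10. Exons of Pam, Pick1, Ica1l and Vps52 overlap another annotated gene, which makes their counts uncertain.

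Of 31 peptide precursors in the matrix 22 could be tested, with 10 above 0 and 12 below (median -0.06) and a wide range of -0.57 to 0.63. This median was -0.20 with isolated replicate 1 left out and 0.11 with group-housed replicate 2 left out. Sst, the somatostatin gene, measured 16.9 and 20.9 CPM in isolated and 10.6 and 14.7 CPM in group-housed libraries (0.57, edgeR adjusted p = 0.729). Calca (0.63) and Pnoc (-0.56) were the other 2 named by size, at no more than 1.63 CPM in any library. Tac2, the neurokinin B precursor and a product of medial habenula neurons, was named after its values were seen, since other tests called it. It measured 149 and 181 CPM in isolated and 124 and 120 CPM in group-housed libraries (0.43, edgeR adjusted p = 0.366). Cck, the cholecystokinin gene, was also named after its values were seen, and it was lower in both isolated libraries. Its values were 31.4 and 32.3 CPM in isolated and 39.4 and 42.3 CPM in group-housed libraries (-0.36, edgeR adjusted p = 0.369). The 22 genes of synaptic vesicle release had a median of -0.04, with 6 above 0 and 16 below and a range of -0.26 to 0.16. Of these, Doc2b gave -0.26, Rims2 -0.13 and Sv2b 0.12, with edgeR adjusted p-values of 0.885, 0.979 and 0.979. Exons of Doc2b and Sv2b overlap those of another annotated gene.

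**Figure D4:**
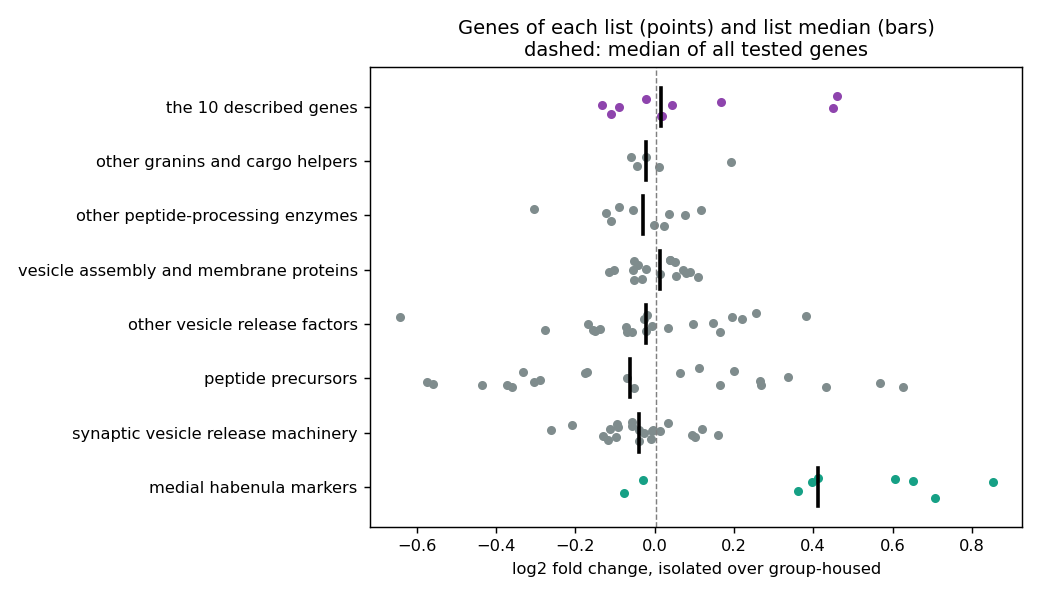
Log2 fold change, isolated over group-housed, of each tested gene (points, with vertical jitter only) and the list median (bars), with the median of all tested genes as a dashed line. Syt9 and Cadps2 are the rightmost points of the top row, and the bottom row shows the medial habenula markers, whose median is 0.41. The other marker lists are not drawn, and their medians ran from -0.47 (thalamus) to 0.74 (ependyma).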

How the data were processed

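Poly(A) RNA of the lateral habenula was measured in 4 libraries made with a stranded kit, per the labels' protocols. Per the submitters' processing notes, GRCm38, CASAVA, TopHat2 2.1.1, edgeR and HTSeq were used. No source used here gives the annotation release or the strand setting. The authors deposited raw counts per Ensembl gene, which were used throughout, and a normalised signal, which is the deposited counts times a constant per library and served only as an alternative scaling.

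Symbols (53274 of 53465 identifiers), exon lengths and overlaps came from GENCODE M21 (GRCm38). Libraries were compared, isolated over group-housed, with edgeR 4.0.16 in R 4.3.3 (filterByExpr, TMM, quasi-likelihood test, 2-sided, no covariate, Benjamini-Hochberg adjustment over 17528 genes at 0.05). A standard error is the log2 fold change divided by the root of F. Alternatives were DESeq2 1.42.0, limma-voom (limma 3.58.1), edgeR's exact test, other scalings and filters, a replicate block, and omission of each library. Replicates differed by more than counting noise. As nothing says that libraries came from separate animals, p-values reflect only how much these samples varied, and that variation may be technical.

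The 10 genes and all lists were chosen with earlier results of these data known. The lists cover further granins, processing enzymes, vesicle assembly, release factors, peptide precursors, synaptic vesicle release and tissue markers. Of each pathway list up to 3 genes with non-overlapping groups were named, by size of fold change, besides any gene called. Summed levels of the other marker lists were 471 and 510 CPM in isolated and 418 and 426 CPM in group-housed libraries for hippocampus and cortex, 78.2 and 89.8 CPM in isolated and 55.8 and 165 CPM in group-housed libraries for choroid plexus, 47.2 and 67.7 CPM in isolated and 55.5 and 65.4 CPM in group-housed libraries for meninges, and 143 and 175 CPM in isolated and 162 and 155 CPM in group-housed libraries for endothelium and blood.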

Additional observations from a re-analysis of the deposited data

How the results depend on the processing

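The log2 fold changes of the 10 genes were recomputed under 13 alternatives. Those of 7 genes kept their sign in all 13. The signs of Chgb, Scg2 and Scg3, all near 0, turned only in omissions of a library. Medians of the pathway lists turned sign in an omission for processing enzymes (-0.08 to 0.03 over the omissions), vesicle assembly (-0.03 to 0.03), further release factors (-0.08 to 0.03), peptide precursors (-0.20 to 0.11) and synaptic vesicle release (-0.13 to 0.06), and stayed below 0 for further granins. The median of the 10 ranged from -0.045 to 0.065 over the omissions. Where the fit called 2 genes higher and 0 lower over all genes, and 0 of the 10, the counts depended on the test. With no filter on low counts 15 were called higher, and 2 of the 10 (Cadps2 and Syt9) passed. DESeq2 called 42 higher and 10 lower, with 2 of the 10 and 1 pathway gene. The exact test called 67 higher and 15 lower, with 2 of the 10 and 2 pathway genes. Over the omissions the counts were 0 to 151 higher, 0 to 70 lower, 0 to 2 of the 10 and 0 to 2 pathway genes. The highest counts of genes higher and lower came without isolated replicate 1. The causes were not tested. The ratio of the highest to the lowest level per kb was 43.0 on longest transcripts.

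With the replicate number as a block, 52 genes were called higher and 12 lower, with 2 of the 10 (Cadps2 and Syt9) and 3 pathway genes (Sst, Stxbp5l and Tac2). The deviations of same-numbered libraries from their group means had a correlation of 0.141 over genes, and with 2 libraries a group and no label that ties them, the libraries share only a number. The authors' normalization constants, an alternative chosen after seeing the data, changed no count.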
